A study of Homo sapiens with 9 samples.

Results

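Messenger RNA of cells given siRNA against both UPF1 and XRN1 was set against that of control cells, with 1 RNA-seq library of each, 2 of the 9 samples of the series. All cells were HEK293 Flp-In T-Rex, a human embryonic kidney line, of the subline b-39, which carries a beta-globin reporter with a premature stop (PTC39) expressed from the Flp-In locus. Cells given both siRNAs are called UPF1/XRN1, as labelled, and the control cells had received siRNA against EGFP. Libraries labelled SMG6/XRN1 and XRN1, with 1 each, share that control and are given side by side. RNA was the poly(A)+ fraction of a cytoplasmic digitonin extract, and libraries were made with ScriptSeq v2. Libraries of RNA 5′ ends (4 samples) and of CAGE (1 sample) were not analysed here. Because UPF1/XRN1 cells received both siRNAs and the control neither, the contribution of each siRNA cannot be told apart within this comparison. Values in the XRN1 library are therefore given beside many of the values.

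UPF1 is an RNA helicase without which nonsense-mediated decay (NMD) does not run. The pathway removes mRNAs on which translation ends at a stop codon with spliced exon junctions downstream of it. Proteins left at those junctions, the exon junction complex, mark the stop as premature, and SMG6 then cuts the mRNA, or SMG5 helps lead it to decapping and deadenylation. XRN1 is the cytoplasmic exonuclease that degrades decapped or cut RNA from its 5′ end. Natural NMD substrates include the non-coding transcripts that host small nucleolar RNAs (snoRNAs), whose short reading frames stop ahead of many junctions, and the poison-exon isoforms of splicing factors.

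The gene table gave FPKM, fragments per kilobase of transcript and per unit of mapped reads, for 22266 loci, and the isoform table gave spike-in normalised signal for 199618 isoforms. The 12164 loci whose FPKM averaged 1 or more across the 4 libraries were compared. Low isoform signals lay on multiples of 1 step per library, which gave 35983475 estimated reads for UPF1/XRN1 and 31476526 for the control. Sizes of change are log2((UPF1/XRN1 + 1)/(control + 1)), which understates low genes, and "rose" or "fell" means at least 2-fold on that scale. With 1 library a side there is no replicate check and no p-value. Read ratios carry exact 95% intervals that cover counting error only.

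The targeted mRNAs did not check the label. UPF1 had 8.59 FPKM in UPF1/XRN1, 11.4 in SMG6/XRN1, 11.6 in XRN1 and 6.71 in the control, and its reads in UPF1/XRN1 were 1.10 times the control (1.01 to 1.19). XRN1 had 6.50 FPKM in UPF1/XRN1, 10.1 in SMG6/XRN1, 7.31 in XRN1 and 7.80 in the control, on 1854 reads in UPF1/XRN1 and 1781 in the control (interval of the ratio 0.941 to 1.07). Neither mRNA was reduced in reads, so every direction here rests on the label of the library. SMG6, which was not targeted in these cells, had 5.97 FPKM in UPF1/XRN1 and 4.77 in the control, with 1115 and 571 reads and a read ratio of 1.88 (1.70 to 2.09).

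The beta-globin gene HBB, the gene of the reporter, stood highest in UPF1/XRN1. It had 747 FPKM there, 355 in SMG6/XRN1, 257 in XRN1 and 139 in the control. HBB rose by 2.42 on the log2 scale, and its reads were 6.13 times the control (5.83 to 6.45). The reporter and the chromosomal gene cannot be told apart in these values. The alpha-globin gene HBA1 had 3.83 FPKM in UPF1/XRN1 and 6.21 in the control, and HBA2 had 1.08 and 2.47, on at most 95 reads. Of genes with which HEK293 cells are described, 5 of 12 were among the loci compared. The filament gene VIM had 380 FPKM in UPF1/XRN1 and 360 in the control. The other measured genes lay below 0, with EYA1 at -0.05, CDH2 at -0.18, INA at -0.67 and NEFL at -0.83. NEFL had 31.3 FPKM in UPF1/XRN1 and 56.5 in the control. Of 18 defining genes of other cell types, EPCAM (98.0 and 120 FPKM) and HBA1 were compared and the other 16 were not among the loci compared.

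The comparison was strongly one-sided. Of the 12164 loci, 1244 (10.2%) were at least 2-fold higher in UPF1/XRN1 and 70 (0.575%) at least 2-fold lower. The median locus lay at 0.15, so values near 0 change sign when centred on it. The reads of the locus were also at least 2-fold higher for 1177 of the 1244 risers and at least 2-fold lower for 56 of the 70 fallers. Against the same control, SMG6/XRN1 had 1131 loci higher and 32 lower, and XRN1 had 500 higher and 45 lower. In bulk RNA, fewer cells with a transcript and less of it per cell cannot be told apart.

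The risers were spread unevenly over gene types. Each locus was typed by its most abundant reference transcript in GENCODE 29, and the types and exon counts were examined after values had been seen. Of 171 unprocessed pseudogenes, which arise by duplication and keep introns, 95 (55.6%) rose, none fell, and the median was 1.18. Of 154 processed pseudogenes, which are intronless copies of mRNAs, 21 (13.6%) rose and 4 fell, with a median of 0.05. Of 9929 protein-coding loci, 826 (8.32%) rose and 40 fell, close to the 10.2% of all loci. Processed transcripts, a class of spliced RNAs without a reading frame, had 23 of 76 higher, lincRNAs 41 of 203 and antisense RNAs 51 of 546. Reads of pseudogenes and their near-identical parent genes may be split between them, so single pseudogene values are uncertain.

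Among protein-coding loci the change increased with the number of exons. The 162 loci whose leading transcript has 1 exon had a median of -0.27, with 3 higher (1.85%) and 8 lower (4.94%). The 445 loci with 2 exons had a median of -0.06, the 1368 with 3 to 4 exons 0.01 and the 2773 with 5 to 8 exons 0.11. The median was 0.21 for the 3180 loci with 9 to 16 exons and 0.26 for the 2001 with 17 or more, of which 10.1% and 10.6% rose. The order held on the isoform signal summed per locus, where the medians ran upwards through -0.20, 0.02, 0.11, 0.21, 0.32 and 0.40. Against the same control the medians of the 1-exon and the longest class were -0.09 and 0.36 in SMG6/XRN1 and -0.12 and 0.20 in XRN1. Long 3′ UTRs did not go with higher values. The 848 loci whose leading transcript has a 3′ UTR over 4000 nt had a median of 0.02 and 3.89% higher, against 0.11 and 10.5% for the 1253 with at most 200 nt. The classes between them had medians of 0.17, 0.20, 0.13 and 0.08 with growing length, so the shortest class was not the highest. For the shortest and longest class the medians were 0.26 and 0.16 in SMG6/XRN1 and 0.18 and 0.08 in XRN1.

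**Figure D1:**
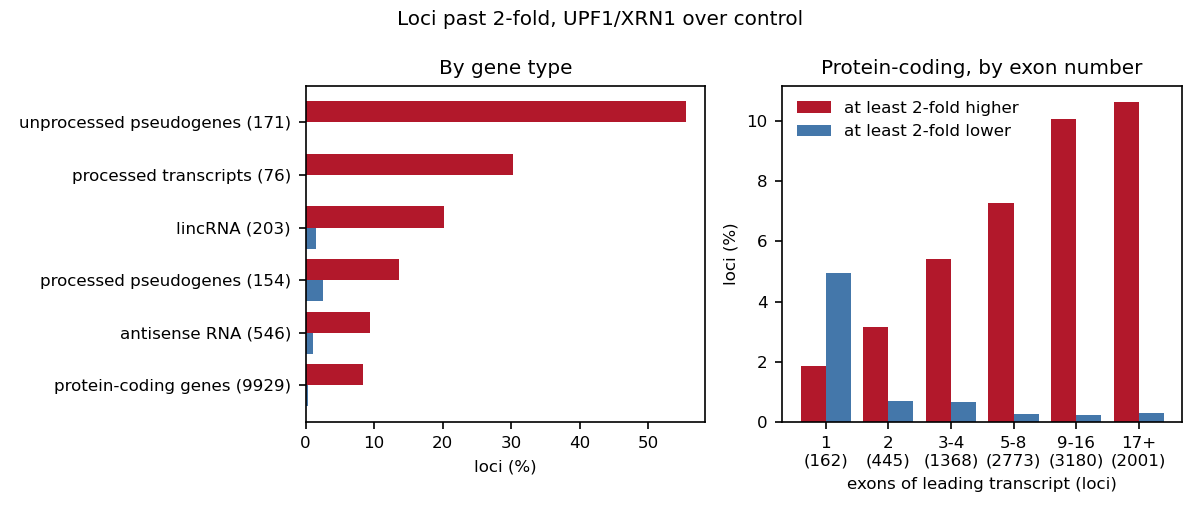
Share of loci at least 2-fold higher (red) and lower (blue) in UPF1/XRN1 over control, in percent, by gene type (left) and by exon number of protein-coding loci (right), with the number of loci in parentheses. Unprocessed pseudogenes reach 55.6% higher, and the share of coding loci that were higher runs from 1.85% at 1 exon to 10.6% at 17 or more exons.

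Non-coding snoRNA hosts were the list with the largest median. Their exons have no long reading frame, and the snoRNAs lie in their introns. Of 15 measured hosts of 21 listed, 11 rose and none fell, beside 10.2% and 0.575% of all loci. The median was 2.59, against 1.14 in XRN1. SNHG1, host of several box C/D snoRNAs, had 792 FPKM in UPF1/XRN1, 440 in SMG6/XRN1, 154 in XRN1 and 55.9 in the control. Its log2 change was 3.80 and its reads were 15.6 times the control (14.9 to 16.5). The 4 libraries stood in that same order for SNHG12, which had 479, 445, 129 and 37.2 FPKM (3.65). EPB41L4A-AS1 had 157 FPKM in UPF1/XRN1, 136 in SMG6/XRN1, 44.9 in XRN1 and 16.4 in the control (3.19).

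The most abundant hosts did not follow that order. GAS5, a host whose short reading frame made it an early NMD example, had 1353 FPKM in UPF1/XRN1, 1482 in SMG6/XRN1, 412 in XRN1 and 176 in the control (2.94), with a read ratio of 8.41 (8.14 to 8.70). ZFAS1 had 2290 FPKM in UPF1/XRN1, 3336 in SMG6/XRN1, 868 in XRN1 and 380 in the control (2.59). Both stood lower in UPF1/XRN1 than in SMG6/XRN1, as did SNHG6 with 565 and 755 FPKM. SNHG7 and SNHG15 had 252 and 91.2 FPKM in UPF1/XRN1 against 37.0 and 12.4 in the control. SNHG11 (2.80), SNHG5 (1.55) and SNHG8 (1.22) completed the 11 that rose. The 4 hosts that did not rise were DANCR (-0.12), SNHG16 (-0.16), SNHG9 (-0.43, on 3 and 5 reads) and SNHG10 (-0.70, on 36 and 79 reads). SNHG16 changed in isoforms, not in level: its leading isoform ENST00000493536.1 held 22.6% of the reads of the locus in UPF1/XRN1 and 77.7% in the control.

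**Figure D2:**
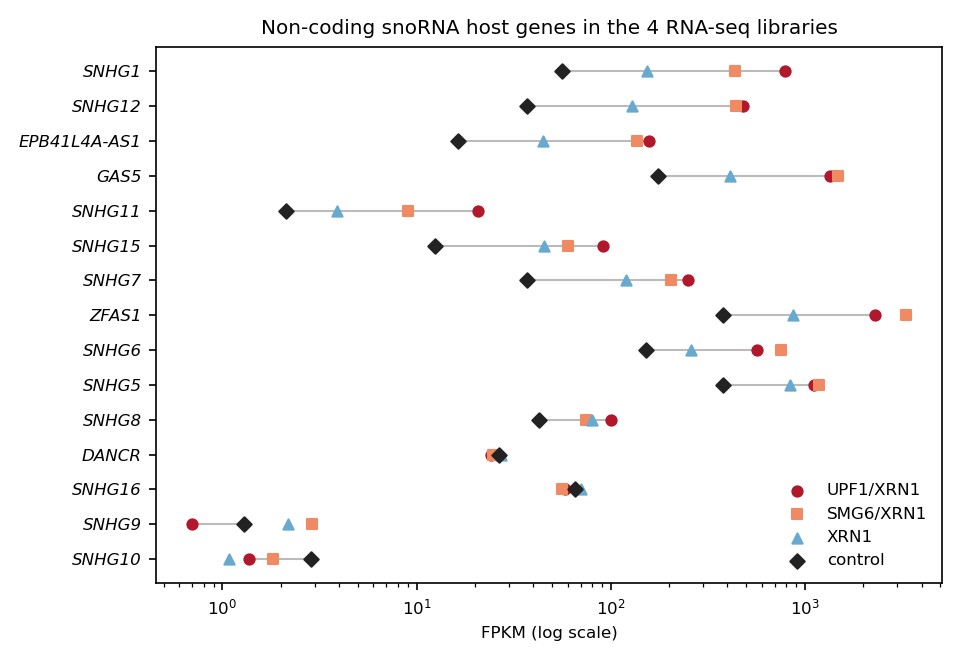
FPKM (log axis) of the 15 measured non-coding snoRNA hosts in UPF1/XRN1, SMG6/XRN1, XRN1 and control, 1 point per library, ordered by log2 change of UPF1/XRN1 over control, with a grey line between those 2. For 11 hosts the UPF1/XRN1 point lies at least 2-fold right of the control, and DANCR, SNHG16, SNHG9 and SNHG10 lie at or left of it.

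Protein-coding snoRNA hosts outside the ribosomal proteins differed from them. Of 38 measured, 6 rose (15.8%, beside 10.2% of all loci), none fell, and the median was 0.06, or -0.10 after centring. TAF1D, a subunit of the polymerase I selectivity factor, had 434 FPKM in UPF1/XRN1, 486 in SMG6/XRN1, 136 in XRN1 and 62.4 in the control (2.78). NOP58, a core protein of box C/D particles, had 611 FPKM in UPF1/XRN1 and 178 in the control (1.77), and the import receptor TNPO2 had 28.9 and 9.27 FPKM (1.54). UBAP2 (1.37) and SNX5 (1.27) also rose. The FPKM of the chromatin remodeller CHD8 rose by 2.33, but its reads were 1.21 times the control (1.14 to 1.28). At the low end, nucleolin NCL had 470 FPKM in UPF1/XRN1 and 737 in the control (-0.65) and CHD4 47.8 and 74.6 (-0.63).

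mRNAs described as NMD substrates moved in 1 direction. Of 29 measured textbook NMD targets, 21 rose and none had a value below 0. Their median was 1.29, against 0.66 in XRN1 and 0.99 in SMG6/XRN1. Among all 12164 loci, 10.2% rose and 7564 lay above 0. TBL2 had 27.3 FPKM in UPF1/XRN1, 16.2 in SMG6/XRN1, 14.6 in XRN1 and 5.74 in the control (2.07). UPP1, a uridine phosphorylase, had 13.7 FPKM in UPF1/XRN1 and 3.28 in the control (1.78). GADD45A, a stress-induced growth arrest gene, had 156 FPKM in UPF1/XRN1, 104 in SMG6/XRN1, 79.6 in XRN1 and 49.96 in the control (1.62). GABARAPL1, an autophagy protein, had 62.9 and 20.6 FPKM (1.57) in UPF1/XRN1 and the control. The lowest were SLC7A11 and TNFRSF10B (both 0.68) and HNRNPL (0.24). This list shares 19 members with the lists of snoRNA hosts, NMD factors, splicing factors, ATF4 targets and p53 targets. Of the 10 outside those lists, 8 rose and the median was 1.30. The list was drawn up with earlier results of these libraries known.

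NMD factors were themselves higher. Of 15 measured, 5 rose (33.3%, beside 10.2% of all loci), and the median was 0.57, against 0.40 in XRN1. None fell, beside 0.575% of all loci, and 13 lay above 0, beside 7564 of the 12164 loci compared. DHX34, a helicase that promotes UPF1 remodelling, had 6.23 FPKM in UPF1/XRN1, 4.84 in XRN1 and 1.201 in the control (1.72). SMG9, a partner of the kinase SMG1, had 47.9 FPKM in UPF1/XRN1, 42.9 in SMG6/XRN1, 29.9 in XRN1 and 14.7 in the control (1.64). SMG5 had 21.9 FPKM in UPF1/XRN1, 14.2 in XRN1 and 7.27 in the control (1.47). SMG1, the kinase that phosphorylates UPF1, had 12.5, 13.8 and 5.40 FPKM in the same order (1.07), and so stood higher in XRN1. UPF3B had 114 FPKM in UPF1/XRN1, 96.7 in XRN1 and 56.3 in the control (1.01). UPF2 (0.95) was just under 2-fold. SEC13 (-0.01) and RUVBL1 (-0.44) lay lowest. Of 10 members of the exon junction complex, MAGOHB (1.07) and UPF3B rose, while the core protein EIF4A3 had -0.47 and RNPS1 -0.50, with a list median of -0.02 (0.08 on summed signal).

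Genes of other decay routes gave few calls, beside 10.2% of all loci that rose. The lists are short, so such counts do not set these routes apart from all loci. None of 14 decapping and 5′ to 3′ decay genes passed 2-fold, with LSM1 (0.66) and PATL1 (0.58) highest. Of 30 deadenylase and exosome genes, CNOT10 rose (1.24, 60.6 against 25.1 FPKM) and the median was 0.29. Of 13 genes of histone mRNA decay, in which UPF1 also takes part, the uridylyltransferase ZCCHC6 rose (1.16) and the kinase PRKDC fell (-1.04, 37.0 against 77.2 FPKM). The fall of PRKDC was under 2-fold in reads (ratio 0.574, 0.559 to 0.589). Their substrates, 31 replication-dependent histone genes, stayed within 2-fold, and their median was -0.01 (0.10 on summed signal). Only poly(A)+ RNA was sequenced, so histone mRNA without a poly(A) tail is not covered by these values. None of 7 described targets of Staufen-mediated decay, another UPF1 route, passed 2-fold, and PAICS had -0.63.

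Isoforms were compared on the spike-in normalised signal. On that signal summed per locus, 2003 of the 12164 loci were higher and 133 lower, with a median of 0.27. Of 46193 isoforms with at least 40 reads over both libraries, 15238 (33.0%) had at least 2-fold more signal in UPF1/XRN1 and 3741 (8.10%) at least 2-fold less. The median isoform lay at 0.42. Isoform signals are estimates that divide shared reads, and an isoform listed at 0 can be a failed estimate. Of 2760 isoforms that GENCODE 29 types as NMD, 1633 rose (59.2%) and 119 fell, with a median of 1.42, against 0.41 in XRN1 and 1.10 in SMG6/XRN1. Without isoforms listed at 0 in either library the NMD median was 1.25 and 56.2% rose. Of 21367 protein-coding isoforms, 4554 rose (21.3%), and the median was 0.20. Retained-intron isoforms (40.3% higher, median 0.68) and processed transcripts (42.2%, 0.74) lay between them. Assembled isoforms that share a junction with a reference without matching it had 5710 of 12985 higher (44.0%). Isoforms listed at 0 were kept in that count. An isoform absent from the control passes the filter on summed reads only if it is high in UPF1/XRN1. The authors' own mark of 28034 isoforms as NMD holds those more than 2-fold over the control in both UPF1/XRN1 and SMG6/XRN1, so it was not used to group isoforms.

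Isoforms were also grouped by the position of the stop codon, in transcripts whose version was the same in GENCODE 29 as in the files. Type and stop both come from GENCODE 29, so this is no independent check of the type. These transcripts are a part of the 2760 NMD isoforms, of which 59.2% rose. Of 222 NMD-typed isoforms with 1 junction more than 50 nt after the stop, 45.0% rose, with a median of 0.80. With 2 such junctions the figures were 50.9% and 1.06 over 106 isoforms, and with 3 or more 52.4% and 1.02 over 164. Of 3518 protein-coding isoforms with no such junction, 16.5% rose, with a median of 0.12.

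**Figure D3:**
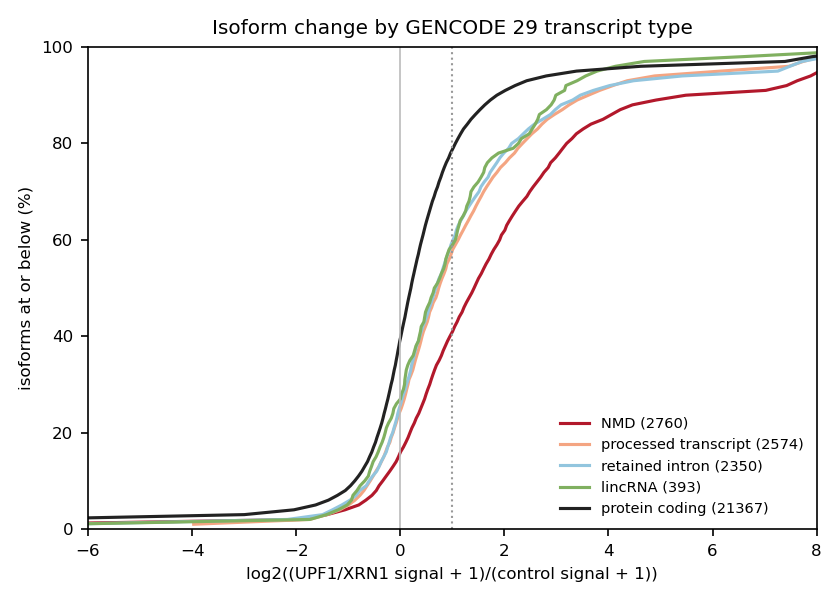
Cumulative share of isoforms (percent) at or below each log2 change of spike-in normalised signal, UPF1/XRN1 over control, by GENCODE 29 transcript type, with the number of isoforms in parentheses. The curve of NMD isoforms, with a median of 1.42, lies right of retained introns (0.68), processed transcripts (0.74) and protein-coding isoforms (0.20).

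Genes of splicing factors had the largest median gains in NMD isoform share among 9 lists examined. SR proteins and their relatives activate splicing, and many hold a poison exon, a conserved exon with an in-frame stop. The stop codons of isoforms that gained share in 5 of these genes, picked after their values were seen, are shown to let a reader see where translation ends in each, 12 bases before and 12 after the stop in capitals, read from GENCODE 29 transcripts on GRCh38. The NMD isoform is followed by the coding isoform with most signal in the control.
HNRNPL NMD isoform ENST00000388749.7, stop at chr19:38841624-38841626, minus strand: ctaactcactgtTGAagcgtccaatgg
HNRNPL coding isoform ENST00000600873.5, stop at chr19:38836722-38836724, minus strand: cagcacgcctccTAAttaggtgcctag
TRA2B NMD isoform ENST00000456380.5, stop at chr3:185931772-185931774, minus strand: ctcaggaataagTGAagctgaaatttg
TRA2B coding isoform ENST00000453386.6, stop at chr3:185917715-185917717, minus strand: cctcgtcgctatTAAagcatgaagact
SRSF3 NMD isoform ENST00000477442.6, stop at chr6:36599852-36599854, plus strand: ctcaccaccctcTGAatctgcattagc
SRSF3 coding isoform ENST00000373715.10, stop at chr6:36601987-36601989, plus strand: aatgaaaggaaaTAGaagacagtttgc
SRSF10 NMD isoform ENST00000495785.1, stop at chr1:23978673-23978675, minus strand: agtgaggggtgtTGAagtttgaaattc
SRSF10 coding isoform ENST00000343255.9, stop at chr1:23971142-23971144, minus strand: tccagtggccacTGAtagtataaacca
HNRPDL NMD isoform ENST00000502762.4, stop at chr4:82426059-82426061, minus strand: taccagccatacTAAaggagaacattg

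The stop codon of the HNRNPL NMD isoform lies 842 nt ahead of its last junction, with 6 junctions over 50 nt downstream. That of TRA2B lies 1015 nt ahead with 8 such junctions, that of SRSF3 548 nt with 3 and that of SRSF10 490 nt with 2. In the coding isoforms of these 4 genes the last junction precedes the stop. The NMD isoform of HNRPDL uses the same stop as its coding isoform ENST00000295470.9, but a spliced 3′ UTR places a junction 127 nt after it, against 22 nt in the coding isoform.

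These NMD isoforms held far more of the reads of their genes in UPF1/XRN1. ENST00000388749.3 of HNRNPL, a splicing regulator, had a signal of 83950 in UPF1/XRN1, 61447 in SMG6/XRN1, 13785 in XRN1 and 5429 in the control. It held 66.9% of the reads of its locus in UPF1/XRN1 (22568 of 33754, exact 95% interval 66.4 to 67.4%) and 7.50% in the control (1409 of 18780, 7.13 to 7.89%). The FPKM of the HNRNPL locus differed by 0.24 on the log2 scale, whereas its reads were 1.73 times the control (1.70 to 1.77). ENST00000456380.1 of TRA2B, an SR-like activator, held 64.6% of 28645 reads in UPF1/XRN1 and 12.4% of 8903 in the control. The coding isoform ENST00000453386.2 of TRA2B held 23.7% and 80.8%, on 6779 and 7197 reads. ENST00000477442.2 of SRSF3 held 54.9% of 34284 reads in UPF1/XRN1 and 9.90% of 21046 in the control, while the reads of its coding isoform were 15250 and 18855.

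**Figure D4:**
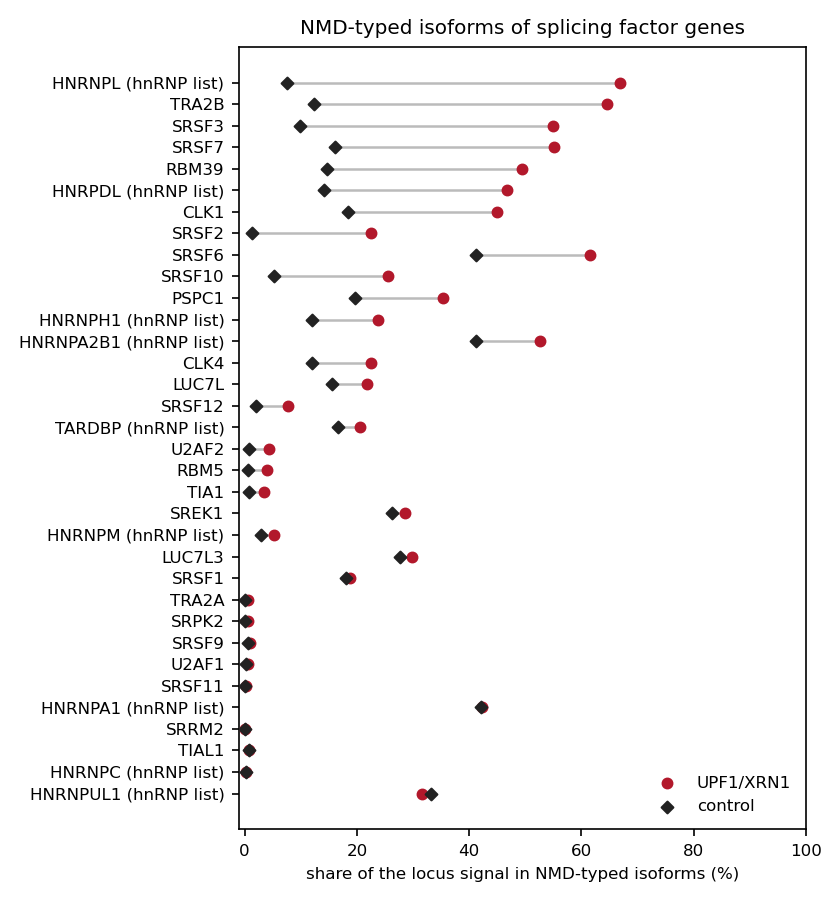
Share of the signal of each locus (percent) in isoforms typed as NMD, in UPF1/XRN1 (red circles) and control (black diamonds), for 25 loci of SR and related genes and 9 of the 10 of the hnRNP list with at least 200 reads in each library. HNRNPL, TRA2B and SRSF3 show the widest gaps, and HNRNPC and HNRNPUL1 lie slightly lower in UPF1/XRN1.

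Summed over all NMD-typed isoforms of a locus, the share was higher in UPF1/XRN1 in all 25 SR loci with such signal and in 8 of 10 hnRNP loci. It was at least 10 percentage points higher in 10 SR and 5 hnRNP loci. Over 2825 loci of all kinds, 2114 had a higher share, 392 by at least 10 points, while 83 had one at least 10 points lower, and the median share was 4.52% in UPF1/XRN1 and 1.87% in the control. SRSF7 had 55.1% and 16.1%, RBM39 49.4% and 14.6%, the kinase CLK1 45.0% and 18.4%, and SRSF2 22.5% and 1.23% in UPF1/XRN1 and the control. SRSF6 stood at 61.6% and 41.2%. Among SR genes, SRSF1 (18.8% and 18.0%) and SRSF9 (0.998% and 0.603%) moved by under 1 point. So did TRA2A, SRPK2, U2AF1, SRSF11, SRRM2 and TIAL1, and the median gain of the 25 SR loci was 3.59 points. Among the hnRNP genes, HNRNPH1 had 23.8% and 12.02% and HNRNPA2B1 52.6% and 41.3%, whereas HNRNPA1 had 42.2% and 42.0%.

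The levels of these 2 families differed. Of 37 measured SR and related genes, 11 rose and none fell, beside 10.2% and 0.575% of all loci. The median was 0.69, against 0.34 in XRN1. RBM39 had 508 FPKM in UPF1/XRN1, 372 in SMG6/XRN1, 196 in XRN1 and 113 in the control (2.15). SRSF6 had 352, 264, 177 and 85.5 FPKM in the same order (2.03), TRA2B 317, 157, 105 and 78.5 (2.001) and SRSF10 278, 204, 114 and 73.4 (1.91). In these 4 genes the control was lowest and UPF1/XRN1 highest. SRSF9 (-0.37), SRSF4 (-0.38) and NONO (-0.44) lay lowest. None of 28 hnRNP and related genes passed 2-fold, with MATR3 at 0.93 and HNRNPA0 at -0.65, and the list median was -0.09.

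Beyond the SR and hnRNP lists, the largest gains of an NMD isoform on at least 1000 reads over both libraries included PAXBP1 (62.0% in UPF1/XRN1 and 8.36% in the control), the haem synthesis enzyme FECH (52.2% and 0.893%) and the DNA repair protein XPA (56.4% and 6.57%). Gains were smaller for the mitochondrial phosphate carrier SLC25A3 (22.5% and 0.992%) and the spliceosome protein SNRPB (16.5% and 1.63%), each for 1 NMD isoform. SAT1, which acetylates spermidine and spermine, rose in level (1783 against 852 FPKM, 1.06). Its coding isoform ENST00000379270.4 held 24.1% of 69098 reads in UPF1/XRN1 and 89.2% of 29756 in the control. In reads that isoform had 16672 and 26551.

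In all, 1 isoform's share moved by at least 25 points in 1036 of 9416 loci with at least 200 reads in each library. The 10 largest moves were led by ZBTB26, KLHL36, ORAI2 and SALL1, where 1 isoform had 94.9 to 99.99% in UPF1/XRN1 and 0 to 0.627% in the control. AUH, ZNF202, EZH1, SHPK and TNRC6C moved the other way, with 0.0484 to 8.02% in UPF1/XRN1 and 76.5 to 87.5% in the control. These moves rest on loci of 210 to 1104 reads. The isoforms are coding reference transcripts, except that those of SALL1 and TNRC6C are assembled isoforms that share a junction with one. CACNA2D3 differed among the 10, with an NMD isoform at 80.2% in UPF1/XRN1 and 4.20% in the control. Among reference-matching isoforms with at least 100 reads, the largest rises were listed at 0 or under 1 read in the control, so no fold is given. They were isoforms of PTBP2 (3801 reads in UPF1/XRN1), PRPF38B (3439), RBM39 (2792), TRA2B (1821), AGTPBP1, KIAA1033, DLG1, IARS, XPO1 and HKR1. The largest falls were listed at 0 or under 1 read in UPF1/XRN1, among them HNRNPL ENST00000601449.1 (3375 reads in the control), GCFC2 (2608), ACADM (2274) and SAFB (1569), and isoforms of HNRPDL, PDE4DIP, PTBP2 and SRSF10.

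Targets of ATF4, the transcription factor of the integrated stress response, were higher as well. ATF4 itself, whose mRNA carries upstream reading frames and is a described NMD substrate, had 601 FPKM in UPF1/XRN1, 603 in SMG6/XRN1, 497 in XRN1 and 241 in the control (1.31). Of 36 measured targets, 13 rose and none fell, beside 10.2% and 0.575% of all loci. Values above 0 were found for 34, beside 7564 of the 12164 loci compared. The list median was 0.72, against 0.62 in XRN1. Of the 27 that are not also textbook NMD targets, 7 rose (25.9%, beside 10.2% of all loci). The median of these 27 was 0.63, against 0.60 in XRN1. NUPR1, a stress-induced chromatin protein, had 12.1 FPKM in UPF1/XRN1, 9.56 in SMG6/XRN1, 4.32 in XRN1 and 1.21 in the control (2.57, on 371 and 29 reads). SLC3A2, the shared chain of amino acid exchangers, had 133, 106, 62.2 and 31.6 FPKM in the same order (2.04). STC2, a secreted glycoprotein, had 18.9 FPKM in UPF1/XRN1, 13.5 in SMG6/XRN1, 16.5 in XRN1 and 4.10 in the control (1.96). SESN2, DDIT3, TRIB3 and PPP1R15A rose by 1.77, 1.57, 1.53 and 1.36. The asparagine synthetase gene ASNS had 282 FPKM in UPF1/XRN1, 319 in XRN1 and 143 in the control (0.98), and so stood highest in XRN1. ALDH18A1 (-0.28) and PYCR1 (-0.02), both of proline synthesis, did not rise.

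ATF4 binds composite C/EBP-ATF elements, and the promoters of the risers were searched for TGATGNAA on both strands, over 250 bases before to 50 after the start in RefSeq on GRCh38.p14. A window was found for 12 of the 13 risers, and 6 of the 12 held the letters, as did 1217 (4.46%) of 27305 genes. Of the whole list of 36, 27 genes had a window, of which 9 (33.3%) held the letters. With under 80% of the list covered the check is void, and since these genes are listed as ATF4 targets, the share says nothing about the change. The 6 genes were SLC3A2, SLC1A4, SLC1A5, ATF3, CHAC1 and JDP2, some of which have several windows. Of these, CHAC1, a glutathione-degrading enzyme, and SLC1A5, a glutamine transporter, are shown with the match in capitals, on the opposite strand in CHAC1 and on the same strand in SLC1A5. CHAC1 had 2.93 FPKM in UPF1/XRN1 and 0.879 in the control (1.06), and SLC1A5 had 73.3 and 29.5 FPKM (1.28).
CHAC1, chr15:40953221-40953520, plus strand: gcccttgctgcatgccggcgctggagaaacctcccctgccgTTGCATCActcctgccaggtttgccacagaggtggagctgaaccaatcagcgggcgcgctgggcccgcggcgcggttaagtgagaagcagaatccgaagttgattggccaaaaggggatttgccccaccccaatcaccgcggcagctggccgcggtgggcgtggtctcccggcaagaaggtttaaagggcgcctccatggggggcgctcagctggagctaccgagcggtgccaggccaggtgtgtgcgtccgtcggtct
SLC1A5, chr19:46784765-46785064, minus strand: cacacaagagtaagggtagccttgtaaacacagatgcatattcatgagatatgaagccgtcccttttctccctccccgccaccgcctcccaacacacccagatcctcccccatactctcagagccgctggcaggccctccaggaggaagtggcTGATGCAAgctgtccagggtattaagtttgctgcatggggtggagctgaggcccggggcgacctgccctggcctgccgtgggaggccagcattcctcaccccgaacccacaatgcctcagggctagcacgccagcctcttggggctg

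Related stress genes moved less. Of 19 cytosolic aminoacyl-tRNA synthetases, many of them ATF4 targets, CARS rose (1.13, 35.99 against 15.9 FPKM), and the median was 0.12, or -0.03 after centring. None of 21 genes of the unfolded protein response passed 2-fold. EDEM1 (0.98) and XBP1 (0.95) were highest, and the chaperone HSPA5 had 18.5 FPKM in UPF1/XRN1 and 21.7 in the control. Of 26 p53 targets, SESN2, GADD45A, the cell cycle inhibitor CDKN1A (1.40, 36.2 against 13.1 FPKM) and PHLDA3 (1.06) rose, and the median was 0.55, against 0.06 in XRN1. Of the 22 of these that are in neither of the lists of ATF4 and NMD targets, PHLDA3 alone rose (4.55%). Of all loci, 10.2% rose. ZMAT3 had 2.09 FPKM in UPF1/XRN1 and 5.09 in the control (-0.98).

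**Figure D5:**
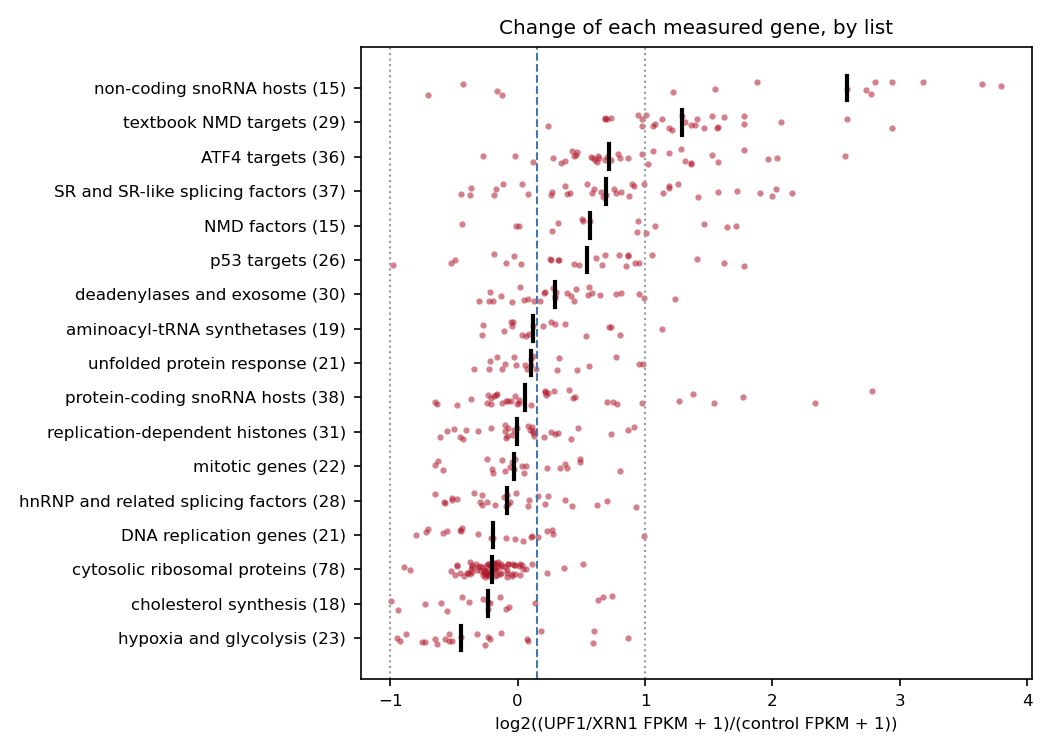
log2 change of each measured gene, UPF1/XRN1 over control FPKM, for 17 gene lists ordered by median (black tick), with the number of genes in parentheses. The dashed line is the median of all loci (0.15) and the dotted lines mark 2-fold. Non-coding snoRNA hosts (median 2.59), textbook NMD targets (1.29) and ATF4 targets (0.72) lie highest, and genes of hypoxia and glycolysis (-0.45) lowest.

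Genes of growth and metabolism lay at or below the median locus. None of 78 cytosolic ribosomal protein genes passed 2-fold, and 10 lay above 0, beside 7564 of the 12164 loci compared. Their median was -0.20, or -0.10 on summed isoform signal, against 0.26 in XRN1. RPL23 had 1437 FPKM in UPF1/XRN1 and 2577 in the control (-0.84), whereas RPL10A had 1591 and 1113 (0.52). Of 41 translation factors, EIF5 rose (1.09, 378 against 178 FPKM), EIF2S3 had -0.71 and the median was -0.02 (0.01 on summed signal). None of 23 genes of hypoxia and glycolysis passed 2-fold and 6 lay above 0, with a median of -0.45, against 0.04 in XRN1. BNIP3L, a mitophagy receptor, had 34.7 FPKM in UPF1/XRN1, 48.7 in SMG6/XRN1, 47.2 in XRN1 and 68.0 in the control (-0.95). The glycolytic genes PGK1 (-0.88) and TPI1 (-0.75) lay near it, and P4HA1 (0.86) and VEGFA (0.59) on the other side. The 18 genes of cholesterol synthesis had a median of -0.23, with SQLE, the squalene epoxidase, at 9.73 and 20.4 FPKM in UPF1/XRN1 and the control (-0.99) and PMVK at 0.74. None of 22 mitotic or 21 replication genes passed 2-fold, with the survivin gene BIRC5 at 0.80, the polymerase subunit POLA1 at 0.99, TOP2A at -0.65 and MCM3 at -0.72.

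Lists of short-lived, immune, selenoprotein and polyamine genes had 0 to 2 risers each, beside 10.2% of all loci. Of 29 immediate-early genes, FOSL1 (1.21) and ATF3 (1.19) rose (6.90%). MYC had 21.8 FPKM in UPF1/XRN1, 29.5 in SMG6/XRN1, 61.6 in XRN1 and 44.1 in the control (-0.99). None of 9 cytokine and inflammatory genes passed 2-fold, with IL32 at -0.75 and IL8 at -0.55. Of 18 interferon response genes, the ubiquitin-like ISG15 had 11.2 FPKM in UPF1/XRN1 and 3.88 in the control (1.32), IRF1 rose by 1.01 (11.1% of the list higher), and IFITM3 fell on 29 and 47 reads. Of 16 selenoprotein genes, whose UGA codons are read through, SELO (1.19) and VIMP (1.005) rose (12.5%) and GPX4 had -0.54. Of 11 genes of the polyamine pathway, SAT1 and the spermine oxidase SMOX (1.02) rose (18.2%) and SMS, spermine synthase, had -0.81.

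Long RNAs listed as nuclear were measured in a cytoplasmic extract, so their values do not give nuclear levels. Among them, PVT1 had 49.3 FPKM in UPF1/XRN1, 43.5 in SMG6/XRN1, 22.6 in XRN1 and 6.05 in the control (2.84). NEAT1, the scaffold of paraspeckles, had 19.0, 11.3, 4.20 and 3.62 FPKM in the same order (2.11). Of the other 6 measured, MALAT1 had 0.17 and OIP5-AS1 -0.78. Of 13 genes often used for normalisation, GUSB alone rose. It had 39.7 FPKM in UPF1/XRN1, 42.9 in SMG6/XRN1, 29.1 in XRN1 and 5.70 in the control (2.60), with a read ratio of 5.72 (5.08 to 6.47). ACTB (-0.55) and PGK1 were the lowest of these 13.

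The 12 largest rises by FPKM on loci of at least 5 FPKM came mostly from duplicated families. Besides SNHG1 and SNHG12 they were NPIPP1 (3.86), NPIPL3 (3.85), PILRB (3.68), ASNSP1 (3.65), CROCCP2 (3.61), SEPT7P2 (3.59), PKD1P1 (3.59), TBC1D3F (3.56), GOLGA2B (3.55) and PMS2P3 (3.54). PILRB, a paired immunoglobulin-like receptor, had 50.9 FPKM in UPF1/XRN1, 33.2 in SMG6/XRN1, 22.5 in XRN1 and 3.04 in the control. NPIPL3 had 97.0, 88.0, 61.5 and 5.78 FPKM in the same order, and its symbol covered 65.1% of the signal of the locus. These copies are near-identical to other loci, so the share of reads that belongs to each is uncertain. SEPT7P2 had 110 FPKM in UPF1/XRN1, 72.4 in SMG6/XRN1, 22.9 in XRN1 and 8.18 in the control.

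Falls were few, and 3 of the 12 largest were of uncertain value. RNU6-11 (-2.57) rested on at most 1 read. RP5-857K21.4 (-2.43) is a transcribed processed pseudogene, and the mitochondrial MT-ND6, a subunit of complex I, had 796 FPKM in UPF1/XRN1, 1191 in SMG6/XRN1, 2385 in XRN1 and 2261 in the control (-1.50). A neighbouring mitochondrial locus, led by MT-ND5, was at 1317 FPKM in UPF1/XRN1 and listed at 0 in XRN1 and the control, so these libraries differed in how that genome was quantified. MT-CYB had 558 and 1101 FPKM (-0.98). HOXA13, a homeobox factor of distal limb and hindgut, had 3.23 FPKM in UPF1/XRN1, 6.63 in SMG6/XRN1, 11.1 in XRN1 and 13.2 in the control. It fell by 1.75 on the log2 scale, with a read ratio of 0.289 (0.269 to 0.311). SOX4, an HMG-box factor, had 11.2, 23.4, 28.6 and 29.1 FPKM in the same order (-1.30), and AMOT, which binds YAP, 7.11, 14.3, 25.2 and 20.1 (-1.38). In these 3 genes UPF1/XRN1 was lowest and XRN1 within 2-fold of the control. KCTD12 (-1.22) and the sarcomere gene MYOM2 (-1.43) likewise stood lowest in UPF1/XRN1. COPS8 (-1.33), RBBP4 (-1.26) and SYNC (-1.42) fell too, but fell at least 2-fold in the XRN1 library as well, by 1.44, 1.01 and 1.04. CDKN2AIPNL (-1.19) completes the 12.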

How the data were processed

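Gene values are FPKM per assembled locus, deposited by the authors as a Cufflinks table. Isoform values are a spike-in normalised signal that the authors deposited. The sources used here do not give the spike-in, its factor or whether counting used strand, so genes that overlap on opposite strands cannot be told apart. Other deposited columns are the authors' identifiers, class codes and TRUE or FALSE marks, of which identifiers and codes were used to join isoforms to loci and symbols. Per the submitters' processing notes, CASAVA 1.8.2, Bowtie 0.12.7, TopHat2 2.0.6, Cufflinks 2.0.2 and the build hg19 were used. No genome or annotation of that build was used, so genes carry no coordinates of their own, and transcript types come from GENCODE 29 (93.2% of reference isoforms matched by identifier).

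Estimated reads are signal divided by the value of 1 read, the commonest low sum per library (3.72 in UPF1/XRN1 and 3.85 in the control). Of loci with at most 20 reads, 86.6% in UPF1/XRN1 and 85.8% in the control came out whole within 0.01. Total signal was 1.10 times the control. Because other loci hold fractions, no count test was run. Locus symbols are those with most signal. Named genes were UPF1, XRN1, SMG6 and HBB, the 12 largest rises and falls (mean of at least 5 FPKM, no library at 0, at least 2-fold in reads too), up to 4 largest rises and falls per list, and 10 isoforms each way and 10 shares. Other names, the gene types, exon and 3′ UTR classes, sequences and shares of NMD isoforms were chosen after their values were seen. The comparison, the 33 lists and the rule were chosen with earlier results of these data known. Sizes and intervals were tested on simulated counts drawn with counting error only, so that test does not cover shared reads or differences between libraries. Python 3.11.15, pandas 2.3.3 and scipy 1.17.1 were used. Some genes that the rule named are not reported here.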

Additional observations from a re-analysis of the deposited data

How the results depend on the processing

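No paired analysis was possible because each group has 1 library and no test was run. The direction was kept by every list median past 2-fold and no called value reversed under any alternative. Counts moved with the scale. With 0.1 FPKM added in place of 1, 189 loci were lower. With 5 added, 506 were higher and 18 lower. A mean of at least 5 FPKM left 819 higher and 36 lower. Centring gave 148 lower (942 higher). Summed isoform signal, whose median locus lay at 0.27, gave 2003 higher and 133 lower, and scaled to the same total 234 lower (1612 higher). The median of globins was 2.42 at a mean of at least 5 FPKM, where HBB alone was left, and that of mitochondrial mRNAs passed 2-fold at -1.24 without loci at 0, -1.13 centred and -1.02 at the same total. Isoforms higher and lower numbered 9481 and 2130 at 100 reads, 25863 and 7808 at 10 reads, and 9345 and 2462 for reference transcripts. At 50 reads in each library, 1827 loci moved a share by at least 25 points. CHD8 was under 2-fold in summed signal (0.27), as were PRKDC (-0.80), VIMP (0.83) and IFITM3 (-0.71). Of the 12164 loci, 284 had under 40 reads over both libraries, and 400 had a symbol that covers under 80% of the signal, a limit added after seeing the data.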
